A study of Homo sapiens with 6 samples.

Results

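The TGF-β and BMP response genes are 10 transcripts that were chosen by name for their place in the transforming growth factor-β (TGF-β) and bone morphogenetic protein (BMP) pathways. They comprise the ligands TGFB1 and TGFB2, the signal carrier SMAD3, the inhibitory SMAD6 and SMAD7, the feedback inhibitors SKIL and BAMBI, and the ID genes ID1, ID2 and ID3. Each of the 10 symbols mapped to 1 gene among the 57500 in the files. The cells were HepG2, an established human hepatocarcinoma line of wild-type genotype, so the values describe a single transformed line. Glycine was added to the medium at 10 mM for 24 h before 3 libraries were made, and cells for 3 other libraries received vehicle for 24 h in standard medium, which already contains glycine. RNA was sequenced in 6 libraries of 31795489 to 58815986 counts, the deepest being glycine replicate 2.

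TGF-β family ligands are secreted dimers that bind pairs of serine/threonine kinase receptors. TGF-β and activin receptors phosphorylate SMAD2 and SMAD3, BMP receptors phosphorylate SMAD1, SMAD5 and SMAD9, and both groups move to the nucleus with SMAD4. Among the genes they switch on are brakes on the pathway itself, namely SMAD6, SMAD7, SKIL and BAMBI. The ID genes, which encode partners that hold basic helix-loop-helix factors off DNA, are classical BMP targets. In liver, TGF-β is known for driving fibrosis and restraining hepatocyte growth, and BMP signalling for setting hepcidin, the iron hormone.

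The libraries carried the transcripts of liver cells. All 10 hepatocyte markers were tested, of which 2 were called lower with glycine, and together they summed to between 25400 and 33900 TPM (transcripts scaled to a fixed total per library, a level per gene length) with vehicle and between 26500 and 30500 TPM with glycine. Stellate cell and fibroblast markers, 10 genes, summed to 96.7 to 105 TPM with vehicle and 77.4 to 87.9 TPM with glycine, nearly all of it from ACTA2 and PDGFRB, both called lower. ACTA2 also stands in the list of TGF-β targets described at the end. The defining fibroblast transcripts COL1A2, COL3A1, LUM and DCN had 19, 27, 19 and 3 counts over all 6 libraries. Of the 6 blood cell markers, PTPRC had 9 counts, MS4A1 had 2 and CD3E had 0 over all libraries, and LYZ accounted for nearly all of the list's 4350 to 4480 TPM with vehicle and 3240 to 3790 TPM with glycine. Of the 3 blood cell markers tested, LYZ was called lower (log2 fold change -0.32, edgeR adjusted p = 0.0172), while CD14 (0.98, edgeR adjusted p = 0.00016) and CD68 (0.63, edgeR adjusted p = 0.0226) were called higher. The 6 endothelial markers summed to 2.5 to 2.68 TPM with vehicle and 2.07 to 2.56 TPM with glycine. Of the 3 tested, 1 was called lower, VWF, on 96 counts over all libraries (log2 fold change -1.18, edgeR adjusted p = 0.0239). The part of these other markers in the results was not tested.

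The promoters shown here are those of the member called lower, of both inhibitory SMADs and of the most abundant member, because SMAD6, SMAD7, BAMBI and ID1 are textbook SMAD targets. Each sequence holds the 250 bases before a transcription start, 5′ to 3′ on the strand of the gene, from RefSeq (GRCh38.p14). RefSeq had an entry for 10 of the 10 members, 16 entries in all. Capitals mark matches to CAGAC (a SMAD element), GTCTAGAC (its palindromic form) and GGCGCC (a GC-rich BMP element), searched on both strands, so that CAGAC on the other strand reads GTCTG.

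BAMBI, chr10:28677271-28677520, plus strand:
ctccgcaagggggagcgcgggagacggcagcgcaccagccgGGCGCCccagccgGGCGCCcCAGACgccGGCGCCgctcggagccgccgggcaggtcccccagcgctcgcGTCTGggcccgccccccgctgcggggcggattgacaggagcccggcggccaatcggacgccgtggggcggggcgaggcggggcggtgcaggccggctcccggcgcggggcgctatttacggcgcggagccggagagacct
SMAD7, chr18:48950966-48951215, minus strand, entry 1 of 3:
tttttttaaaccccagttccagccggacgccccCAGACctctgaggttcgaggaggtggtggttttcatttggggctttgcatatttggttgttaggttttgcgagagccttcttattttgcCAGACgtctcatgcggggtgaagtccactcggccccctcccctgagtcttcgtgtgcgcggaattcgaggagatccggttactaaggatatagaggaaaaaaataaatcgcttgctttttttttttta
SMAD6, chr15:66701986-66702235, plus strand:
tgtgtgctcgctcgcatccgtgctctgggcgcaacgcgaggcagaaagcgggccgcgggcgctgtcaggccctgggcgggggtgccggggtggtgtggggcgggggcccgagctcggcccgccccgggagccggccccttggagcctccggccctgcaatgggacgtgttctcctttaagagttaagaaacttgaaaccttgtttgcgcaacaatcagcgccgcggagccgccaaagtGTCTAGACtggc
ID1, chr20:31605039-31605288, plus strand:
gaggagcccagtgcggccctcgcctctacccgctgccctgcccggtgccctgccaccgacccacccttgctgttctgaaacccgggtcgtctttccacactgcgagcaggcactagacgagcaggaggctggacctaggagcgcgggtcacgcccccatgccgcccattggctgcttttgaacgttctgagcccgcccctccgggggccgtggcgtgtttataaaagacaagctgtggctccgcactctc

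The BAMBI window held 3 matches to GGCGCC and 2 to CAGAC, all between positions -209 and -136 from the RefSeq start at 28677521, which lies inside the gene as the files give it (start 28677342). A match to GGCGCC was present in 19.2% and a match to CAGAC in 45.3% of the 34943 RefSeq promoter windows of 300 bases (250 before and 50 after the start). The 300-base window of BAMBI was 80% G or C. Members that were not called also held these matches, with GGCGCC and CAGAC in SMAD3 and SKIL, and CAGAC alone in TGFB2, SMAD7 and ID3. The SMAD6 window held GTCTAGAC from -12 to -5, a match found in 0.203% of all windows. The SMAD7 window held 2 matches to CAGAC, at -217 to -213 and at -128 to -124. Its RefSeq start at 48950965 lies outside the gene as counted, which ends at 48950711 in the files and at 48952052 in GENCODE 29. SMAD7 was the only member whose bounds differed between the 2. Its entries 2 and 3, with starts at 48949333 and 48942807 inside the counted gene, held 1 and 0 matches to CAGAC and 0 to GTCTAGAC. No SMAD7 window covered position 48950711, so a lack of GTCTAGAC in this gene cannot be read from these windows. The ID1 window held none of these letters, nor did that of ID2, while that of ID3 held 1 CAGAC. A composite of GGCGNC or GACGNC followed after 5 bases by GTCT, the form bound by BMP SMADs with SMAD4, occurred in 0.472% of all windows and in none of the 16 entries of the members. These matches describe the letters of short windows and not binding.

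Levels per gene length differed widely among the members. ID1, the most abundant, stood at 885 ± 84.9 TPM with vehicle (SD, n = 3) and 1030 ± 108 TPM with glycine. With vehicle, TGFB1 (225 ± 18.1 TPM), ID2 (216 ± 19.5 TPM) and ID3 (178 ± 20.8 TPM) came next, and each overlapped its neighbour in this order over the 3 libraries. BAMBI followed at 90.3 ± 5.12 TPM, below every ID3 library and above every SMAD7 library. SMAD7 (30 ± 6.44 TPM) overlapped SMAD3 (21.1 ± 1.74 TPM), and SMAD6 (9.94 ± 1.15 TPM) overlapped SKIL (9.76 ± 1.71 TPM). The order of the 10 genes was identical with glycine, where TGFB1 no longer overlapped ID2, nor SMAD6 SKIL. TGFB2 was last in both groups, with fewer than 0.06 TPM in each library.

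**Figure D1:**
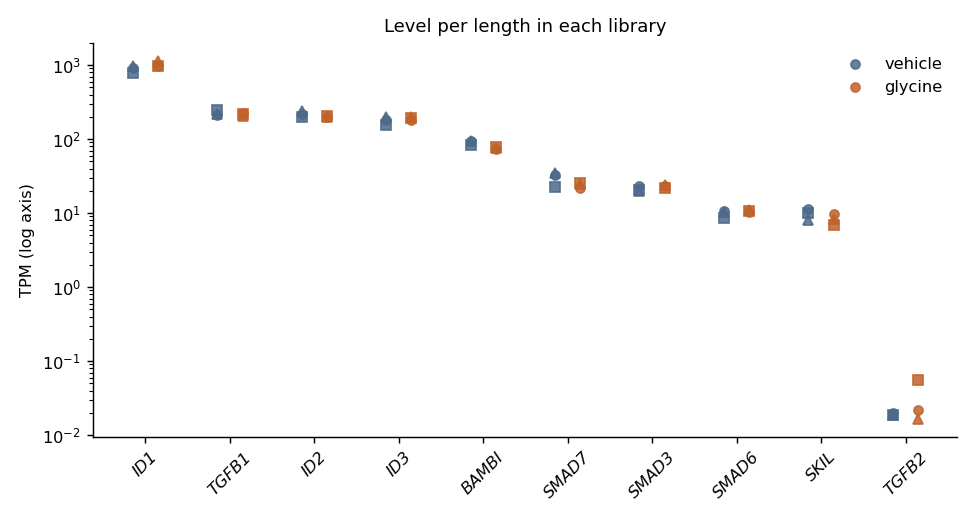
Level per gene length (TPM, log axis) of the 10 members in each library, ordered by their mean with vehicle, with vehicle in blue and glycine in orange (circle, square and triangle: replicate 1, 2 and 3). ID1 lies highest in all 6 libraries, the other tested members lie between 7.01 and 245 TPM, and TGFB2 lies near the level of a single count.

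BAMBI was the only member called, lower with glycine, and it lost this call under 5 of 15 alternatives. In these bulk libraries, fewer cells expressing a gene and less RNA of it per cell cannot be told apart. Of the 9 members expressed enough to be tested, 1 was called lower and 0 higher (edgeR quasi-likelihood test, adjusted p under 0.05). This was 11.1%, beside 13.3% of all 15492 tested genes (6.71% called higher and 6.54% lower). The study describes the 3 libraries of a group as biological replicates, and p-values measure the spread between them. Without adjustment, BAMBI and SMAD7 were lower and ID1 higher, or 2 and 1 members with edgeR p under 0.05. That p was reached by 27.3% of all tested genes. DESeq2 called 0 members higher and 2 lower, beside 856 and 1008 of all genes. With limma-voom, 0 members were called higher and 1 lower, beside 1005 and 998 of all genes. The median log2 fold change of the tested members was -0.07, and that of all tested genes 0.00. Groups did not overlap for 2 of the 9 members, SMAD3 and BAMBI, beside 31.6% of all tested genes (17.2% higher and 14.4% lower with glycine). The 4 largest changes of members had an absolute log2 value between 0.2 and 0.35. Among tested genes within the members' range of 20.1 to 336 CPM (counts divided by the scaled size of each library), 63.4% of the 1066 with a change of that size were called.

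**Figure D2:**
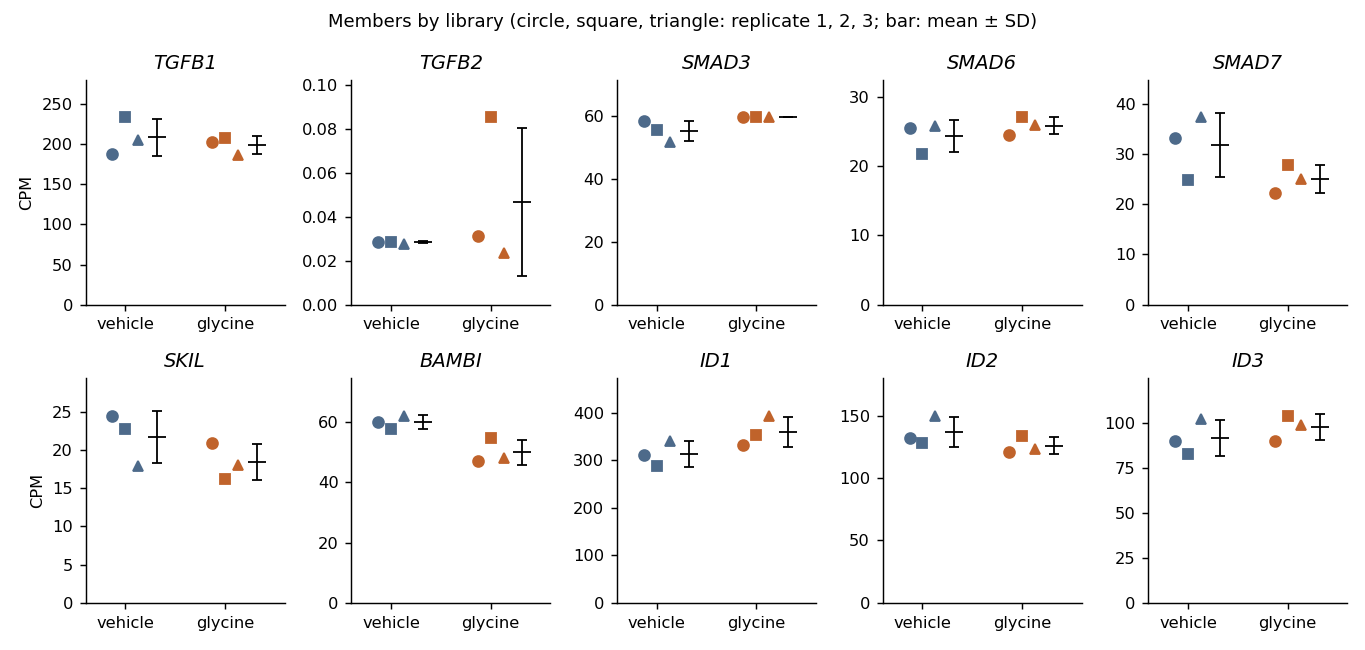
CPM of each member in each library (circle, square and triangle: replicate 1, 2 and 3), with the mean ± SD of 3 libraries beside the points; each axis starts at 0. BAMBI is lower in all 3 glycine libraries than in any vehicle library, SMAD3 is higher by a narrow margin, and the groups of the other members overlap.

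BAMBI encodes a decoy receptor that lacks the kinase domain and blocks signalling by TGF-β family receptors. The gene (ENSG00000095739) lies on chromosome 10 from 28677342 to 28682939 in GRCh38. It had 60.1, 57.5 and 62.1 CPM in vehicle replicates 1, 2 and 3, and 47.2, 54.6 and 48 CPM in the glycine replicates. The highest glycine library, replicate 2, lay just below the lowest vehicle library, so the groups were separate. The vehicle mean was 59.9 ± 2.27 CPM and the glycine mean 49.9 ± 4.03 CPM (SD, n = 3), which gave a log2 fold change of -0.26 ± 0.0714 (s.e., 95% interval -0.41 to -0.11, edgeR adjusted p = 0.0295). This call was lost when counts were thinned to the shallowest library (edgeR adjusted p = 0.0565), and without vehicle replicate 1 (0.0665), vehicle replicate 3 (0.069), glycine replicate 1 (0.118) or glycine replicate 3 (0.102). The log2 fold change stayed between -0.33 and -0.23 under all 15 alternatives.

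SKIL encodes SnoN, a corepressor that binds SMADs on DNA and is itself induced by TGF-β. It lies on chromosome 3 from 170357678 to 170396835 (ENSG00000136603). The vehicle libraries had 24.5, 22.8 and 17.9 CPM and the glycine libraries 20.9, 16.2 and 18 CPM. Vehicle replicate 3 sat among the glycine libraries, so the groups overlapped. The log2 fold change was -0.25 ± 0.117 (s.e., 95% interval -0.50 to 0.00, edgeR adjusted p = 0.188), and without vehicle replicate 3 it was -0.37 (edgeR adjusted p = 0.0286). It was -0.16 both without vehicle replicate 1 (edgeR adjusted p = 0.469) and without glycine replicate 2 (0.485).

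SMAD7 and SMAD6 encode the inhibitory SMADs, which occupy activated receptors and recruit ubiquitin ligases to them. SMAD7 (ENSG00000101665, chromosome 18, 48919853 to 48950711) responds to both TGF-β and BMP. It had 33.1, 24.8 and 37.3 CPM with vehicle and 22.2, 27.8 and 24.9 CPM with glycine. Vehicle replicate 2 fell within the glycine range, while vehicle replicates 1 and 3 were above it. SMAD7 had the most negative log2 fold change of the members, -0.34 ± 0.125 (s.e., 95% interval -0.61 to -0.07), but did not pass the threshold (edgeR adjusted p = 0.0948). Without vehicle replicate 2 the change was -0.49 (edgeR adjusted p = 0.00627), with DESeq2 it was -0.35 (adjusted p = 0.0491), and without a filter on low counts -0.33 (edgeR adjusted p = 0.00156). Without vehicle replicate 3 it shrank to -0.20 (edgeR adjusted p = 0.284). Over all 15 alternatives the adjusted p of SMAD7 ran from 0.00156 to 0.284.

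SMAD6 (ENSG00000137834, chromosome 15, 66702228 to 66782848), the inhibitor that acts mainly on BMP receptors, had 25.6, 21.8 and 25.8 CPM with vehicle and 24.5, 27.1 and 26 CPM with glycine. These groups overlapped, and the log2 fold change was 0.09 ± 0.0808 (s.e., 95% interval -0.09 to 0.26, edgeR adjusted p = 0.535).

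SMAD3 carries the TGF-β and activin signal and binds DNA directly. The gene (ENSG00000166949) lies on chromosome 15 from 67063763 to 67195195. It had 58.3, 55.6 and 51.7 CPM with vehicle and 59.6 CPM in each of the 3 glycine libraries. All glycine libraries were above all vehicle libraries, by a narrow margin. The log2 fold change, 0.11 ± 0.0647, was not called (s.e., 95% interval -0.03 to 0.25, edgeR adjusted p = 0.293).

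TGFB1, the main TGF-β of liver, is secreted bound to its own propeptide and must be released before it acts. Its gene (ENSG00000105329) lies on chromosome 19 from 41301587 to 41353911, and another gene covers 6.6% of its exon length. The vehicle libraries had 188, 234 and 205 CPM and the glycine libraries 203, 208 and 187 CPM. Glycine replicates 1 and 2 lay within the vehicle range, and replicate 3 just beneath it. The log2 fold change was -0.07 ± 0.0801 (s.e., 95% interval -0.24 to 0.10, edgeR adjusted p = 0.621), and 0.02 without vehicle replicate 2. TGFB2 (ENSG00000092969, chromosome 1, 218346235 to 218444619) was too low to test, with 1 count in every library except glycine replicate 2, which had 5. The gene TGFB2-OT1, on the same strand, covers 26.6% of its exon length, and reads there may not have been counted for TGFB2. A 3-count level corresponds to between 0.051 and 0.0944 CPM in these libraries, so a difference in TGFB2 was not detectable at this depth, and this limit covers counting error only.

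The ID genes encode small proteins with a helix-loop-helix and no DNA-binding region. ID1 (ENSG00000125968, chromosome 20, 31605283 to 31606515) had 310, 287 and 341 CPM with vehicle and 332, 354 and 394 CPM with glycine. A pair of glycine libraries exceeded every vehicle library, and glycine replicate 1 lay below vehicle replicate 3. The vehicle mean was 313 ± 26.7 CPM and the glycine mean 360 ± 31.7 CPM (SD, n = 3), which gave a log2 fold change of 0.20 ± 0.0819 that was not called (s.e., 95% interval 0.03 to 0.38, edgeR adjusted p = 0.124). Without glycine replicate 3 the change was 0.12 (edgeR adjusted p = 0.431). The adjusted p of ID1 ran from 0.0537 to 0.431 over the 15 alternatives. ID2 (ENSG00000115738, chromosome 2, 8678845 to 8684453) had 132, 128 and 150 CPM with vehicle and 121, 134 and 123 CPM with glycine. The ID2 groups overlapped, with a log2 fold change of -0.11 ± 0.0732 (s.e., 95% interval -0.27 to 0.04, edgeR adjusted p = 0.347). ID3 (ENSG00000117318, chromosome 1, 23557918 to 23559794) had 89.9, 82.6 and 102 CPM with vehicle and 89.8, 104 and 98.9 CPM with glycine. Its groups overlapped as well, with a log2 fold change of 0.09 ± 0.0829 (s.e., 95% interval -0.09 to 0.27, edgeR adjusted p = 0.515). The values of ID1 and ID3 were on the higher side with glycine and that of ID2 on the lower side, and no difference between the 3 genes was tested.

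**Figure D3:**
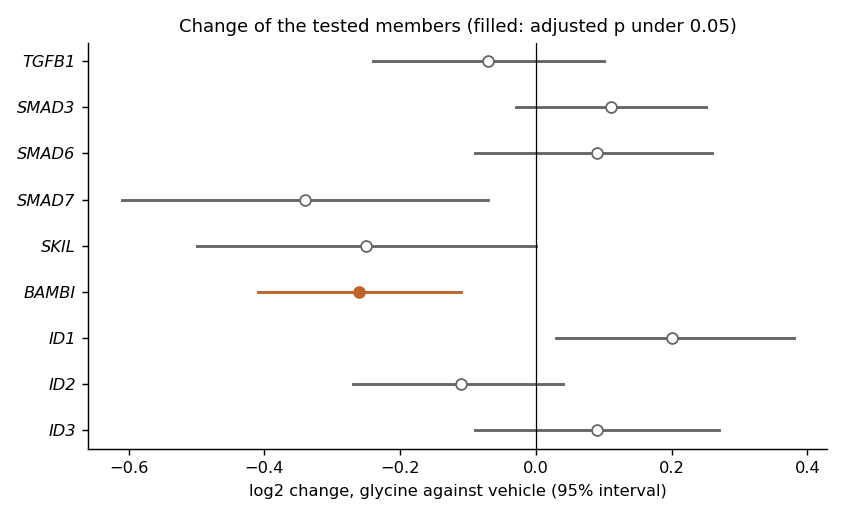
Log2 change with glycine against vehicle for the 9 tested members (points) with its 95% interval (lines), filled orange where the adjusted p was under 0.05. BAMBI is the only filled point, the interval of SMAD7 also lies below 0 and that of ID1 above 0, and the other intervals reach or cross 0.

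The replicates of a group differed from each other in a pattern that several members shared. With vehicle, ID1, ID2, ID3, SMAD6, SMAD7 and BAMBI were all lowest in replicate 2 and highest in replicate 3, a ranking (2, 1, 3) held by 17.3% of all tested genes. With glycine, 5 of these 6 genes were lowest in replicate 1 and highest in replicate 2 (ranking 1, 3, 2), held by 16.3% of tested genes. The exception was ID1, which was highest in replicate 3. Both rankings together were held by 5 of the 6 genes and by 4.72% of tested genes. They place vehicle replicates 2, 1 and 3 in the same order as glycine replicates 1, 3 and 2. Over all tested genes, deviations from the group mean also correlated best between these libraries (0.214, 0.214 and 0.18). The pattern was therefore not particular to these 6 genes. These 6 genes were set apart after their values were seen, and genes of a library are not independent, so the counts are a description.

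SMAD7 deviated furthest in this shared pattern, from -22% of its mean in vehicle replicate 2 to 17.6% in replicate 3. ID3 ran from -9.9% to 11.7% and BAMBI from -3.9% to 3.6% in the same libraries. The members outside the pattern ranked otherwise, with TGFB1 highest (11.7%) in vehicle replicate 2, and SKIL lowest (-17.6%) and SMAD3 lowest (-6.4%) in vehicle replicate 3. The coefficient of variation of SMAD7 was 20.1% with vehicle, a value reached by 1.18% of the 6942 tested genes in the members' CPM range, whose median was 5.92%. That of SKIL was 15.8%, reached by 3.33%. The coefficient of BAMBI with vehicle was 3.78%, the smallest of the tested members. With glycine that of BAMBI was 8.08%, reached by 17.5% of these genes, whose median was 4.79%. SKIL (12.9%) and SMAD7 (11.2%) again varied most with glycine, and SMAD3 (0.0107%) varied least.

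The ligand BMP4 had 206, 205 and 223 CPM with vehicle and 217, 221 and 210 CPM with glycine. It shared the vehicle ranking but was lowest in glycine replicate 3. Of the 8 other BMP targets tested, MSX1 shared both rankings and HEY1 that of the vehicle libraries alone. Neither ranking was shared by ID4, HAMP, ATOH8, SMAD9, GATA2 or TMPRSS6. Outside the BMP target list, BMP6, NEDD4L, TCF3 and TGIF1 also shared both rankings. With MSX1 they were the only such genes among the 86 other pathway genes tested, beside 4.72% of all tested genes. What set these rankings was not tested.

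**Figure D4:**
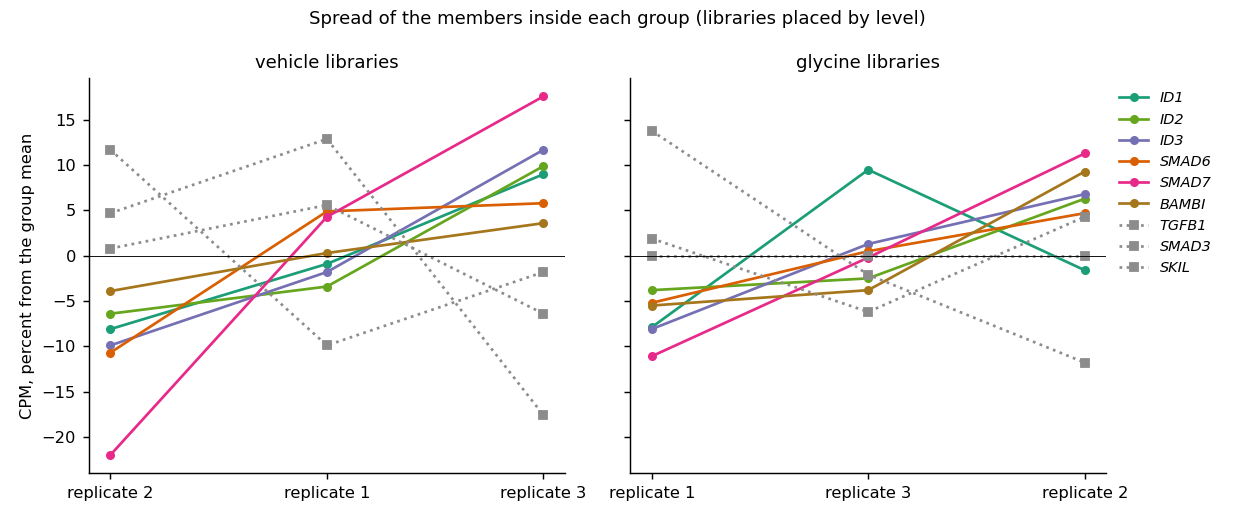
CPM of the 9 tested members in each library as percent from the mean of its group, with libraries placed by the level of most members and lines that only connect the points of 1 gene. ID1, ID2, ID3, SMAD6, SMAD7 and BAMBI (solid) lie lowest in vehicle replicate 2 and highest in vehicle replicate 3, and TGFB1, SMAD3 and SKIL (dotted) do not follow them.

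The rest of the pathway was described through 131 other genes in 9 lists by role, of which 86 were expressed enough to be tested. Of these, 13 were called higher and 10 lower, or 26.7%, beside 13.3% of all tested genes. The median log2 fold change of the 86 was -0.02. An unadjusted edgeR p under 0.05, also given for some lists below, was reached by 27.3% of all tested genes. The list of TGF-β targets, described below, gave 10 of the 13 higher calls and 1 of the 10 lower calls. The lists were compiled with results of these samples known, so these counts are not independent evidence of a share or a direction.

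Among 28 other genes listed as ligands, which include BMP1, a protease despite its name, 12 were tested. Of these, 3 were called lower and 0 higher (2 higher at an unadjusted p under 0.05, and 0 higher with DESeq2 and limma-voom). INHBC and INHBE encode liver activin subunits. INHBE went from 27.8, 26.2 and 30.6 CPM to 20.3, 20.8 and 22.6 CPM, a log2 fold change of -0.41 ± 0.0783 (s.e., edgeR adjusted p = 0.00426). INHBC fell by 0.51 on the log2 scale (edgeR adjusted p = 0.00719) and GDF7 by 0.26 (edgeR adjusted p = 0.0444). GDF7 lost its call under 8 of 15 alternatives, with adjusted p reaching 0.154. BMP4 had a log2 fold change of 0.03 (95% interval -0.10 to 0.17) and GDF15, a stress-induced member of the family, of 0.14 (edgeR adjusted p = 0.373).

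Ligand storage and activation genes moved in both directions, with 2 called higher and 1 lower of 7 tested. FURIN, the protease that cuts the TGF-β propeptide, had 406, 408 and 392 CPM with vehicle and 274, 295 and 266 CPM with glycine, and its groups were far apart. Its log2 fold change was -0.53 ± 0.0656 (s.e., edgeR adjusted p = 0.000152). LTBP1, which tethers latent TGF-β in the matrix, rose by 0.88 on the log2 scale from a low level (1.11 to 2.05 CPM, edgeR adjusted p = 0.00492). THBS1, thrombospondin 1, an activator of latent TGF-β, went from 188 to 232 CPM, with a log2 fold change of 0.30 (edgeR adjusted p = 0.0147). The call of THBS1 was lost without glycine replicate 1 (edgeR adjusted p = 0.07) or glycine replicate 3 (0.0855).

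Of the receptors and co-receptors, 15 of 19 were tested, and 3 were called lower and 0 higher. No tested receptor was higher at an unadjusted p under 0.05, by DESeq2 or by limma-voom. TGFBR3, betaglycan, a co-receptor that presents TGF-β2 and inhibin, had 202, 186 and 168 CPM with vehicle and 131, 115 and 151 CPM with glycine, and no library crossed between groups. Its log2 fold change was -0.49 ± 0.095 (s.e., edgeR adjusted p = 0.00461). The BMP type I receptor BMPR1A fell by 0.29 on the log2 scale (edgeR adjusted p = 0.0259). AMHR2, the anti-Müllerian hormone receptor, fell by 0.78 from a low level (1.74 to 1.01 CPM, edgeR adjusted p = 0.0157). BMPR1A lost its call in 4 and AMHR2 in 2 of the 6 leave-one-out fits, with adjusted p reaching 0.105 and 0.0851. The signalling receptors TGFBR1 and TGFBR2 had log2 fold changes of -0.14 and -0.13 and were not called (edgeR adjusted p = 0.282 and 0.303).

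None of the 5 tested secreted antagonists (of 16) and none of the 5 other SMADs was called with edgeR. At an unadjusted p under 0.05, 1 antagonist was lower, as it was with DESeq2, and limma-voom called 0. This was follistatin, FST, which binds activins, with a log2 fold change of -0.19 (edgeR adjusted p = 0.0617), and it was named after its value was seen. No other SMAD passed an unadjusted p under 0.05, DESeq2 or limma-voom, and their log2 fold changes lay between -0.13 for SMAD9 and 0.10 for SMAD1. Of 16 tested partners, corepressors and ligases, WWP1, a ubiquitin ligase of the pathway, was called lower (log2 fold change -0.27, edgeR adjusted p = 0.022) and 0 were called higher by edgeR, DESeq2 or limma-voom, or at an unadjusted p under 0.05. WWP1 lost its call in 3 of the 6 leave-one-out fits, with adjusted p reaching 0.0743. Of the helix-loop-helix partners of ID proteins, TCF3, TCF12 and HES1 were tested, and none was called by these 3 tools or passed an unadjusted p under 0.05.

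Target genes of TGF-β formed the list with the largest share of calls, 64.7% of 17 tested genes, with 10 higher and 1 lower and a median log2 fold change of 0.47. Several of them, TAGLN, ACTA2 and CCN2 included, are also known targets of SRF or YAP, and the list held genes whose rise was already known when it was written. IL11, a profibrotic cytokine, had 10.6, 10.4 and 9.71 CPM with vehicle and 19.6, 22.1 and 22.3 CPM with glycine. Every glycine library lay far above the vehicle libraries. Its log2 fold change was 1.06 ± 0.083 (s.e., edgeR adjusted p = 3.71e-06). COL1A1, a fibrillar collagen chain, rose by 1.03 from 2.15 to 4.38 CPM (edgeR adjusted p = 0.000585). PMEPA1, a feedback inhibitor that sequesters SMADs, rose by 1.43 on 136 counts over all libraries (0.291 to 0.8 CPM, edgeR adjusted p = 0.0108), and its call was lost without vehicle replicate 1 (edgeR adjusted p = 0.0532). TAGLN, an actin-binding protein, had the largest change of the list, 1.84 on the log2 scale (edgeR adjusted p = 3.11e-08).

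Further rises in that list, given here after their values were seen, were 0.78 for ADAM19, 0.68 for CCN2, 0.60 for CDKN2B, 0.47 for LMCD1 and 0.34 for CDKN1A on the log2 scale, with edgeR adjusted p between 0.000137 for ADAM19 and 0.00641 for CDKN1A. CDKN2B and CDKN1A encode cyclin-dependent kinase inhibitors. ACTA2, smooth muscle actin, was the target called lower (log2 fold change -0.24, edgeR adjusted p = 0.0402), and it lost this call under 7 of 15 alternatives. The matrix gene FN1, fibronectin, was not called (log2 fold change -0.32, edgeR adjusted p = 0.0712), nor were TGFBI (0.09, edgeR adjusted p = 0.386) and JUNB (0.19, edgeR adjusted p = 0.183). Under the alternatives run, 9 to 10 genes of this list were called higher.

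The BMP target list, beside the members, had 1 gene called higher and 1 lower of 8 tested, and a median log2 fold change of -0.11. HEY1, a transcriptional repressor, rose by 0.60 on the log2 scale (2.2 to 3.33 CPM, edgeR adjusted p = 0.0253). MSX1, a homeobox factor, had 35.4, 32.3 and 37.8 CPM with vehicle and 26.5, 31.8 and 28.7 CPM with glycine, so that the groups just failed to meet. Its log2 fold change was -0.27 ± 0.083 (s.e., edgeR adjusted p = 0.0453). HEY1 lost its call under 4 and MSX1 under 7 of the 15 alternatives, with adjusted p reaching 0.103 and 0.163. HAMP, which encodes hepcidin, had a log2 fold change of -0.10 ± 0.082 (s.e., 95% interval -0.27 to 0.08, edgeR adjusted p = 0.496).

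**Figure D5:**
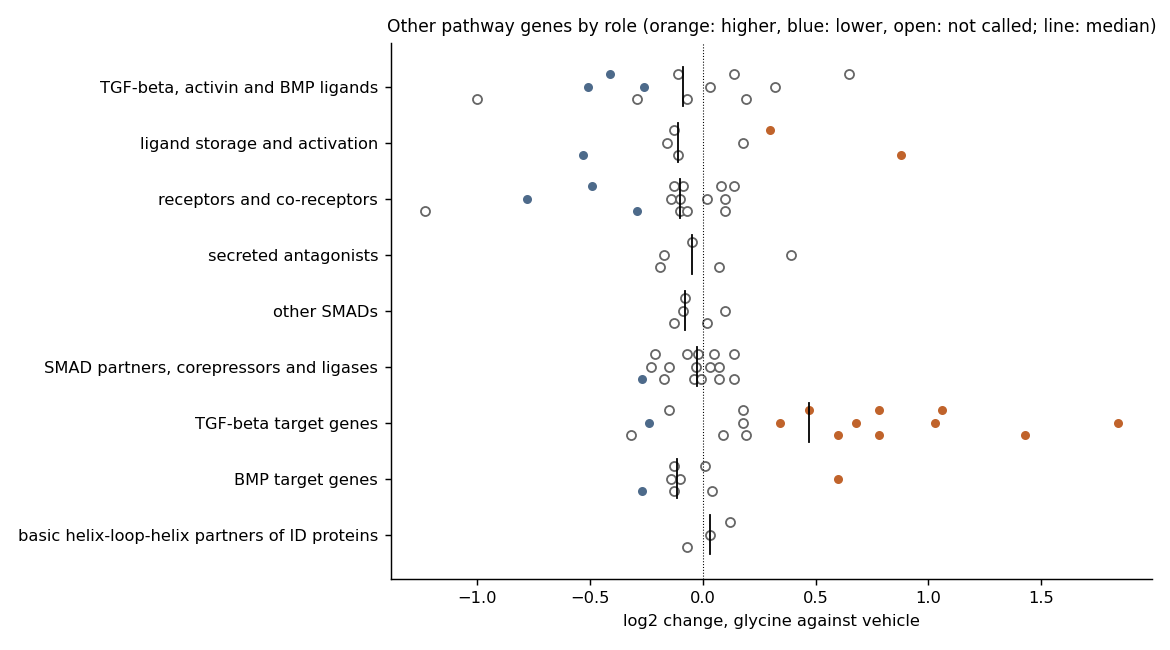
Log2 change with glycine against vehicle (horizontal axis) of the 86 tested pathway genes other than the members, by role, with the median of each list as a vertical line (orange: called higher, blue: called lower, open: not called; SMAD9 and LTBP2 appear in 2 lists). The TGF-β target genes reach furthest to the right, with a median of 0.47, and the other medians lie between -0.11 and 0.03.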

How the data were processed

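HepG2 cells were sequenced after 24 h with vehicle or glycine (10 mM), 3 libraries each, grouped by their titles. The authors deposited whole-number counts per gene, not normalized. The submitters' processing notes name Trimmomatic 0.36, STAR 2.5.2b, featureCounts of Subread 1.5.2 and GRCh38; strand setting and annotation release were not given in the sources used here, so reads of overlapping genes may have been dropped or shared. Of 57500 genes, 54784 had the start and end of GENCODE 29.

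Counts were tested with edgeR 4.0.16 (quasi-likelihood, two-sided, TMM scaling, filter at a minimum count of 10 and total of 15, group alone), with Benjamini-Hochberg adjustment over 15492 genes. The s.e. is the log2 change over the root of F. CPM used TMM library sizes. TPM was computed from counts and the deposited gene length. In simulated counts for glycine against vehicle (15492 genes, 200 changed by 1 on the log2 scale), 86% were recovered with 13 false calls. Changes as small as those of the members were not simulated. Alternatives used DESeq2 1.42.0, limma 3.58.1, other scalings and filters, thinned counts, a replicate block and each library left out. Replicates of a group differed by 6.97 to 26.8 chi-square units per degree of freedom, so none was a duplicate.

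All members and the called genes with the largest changes (up to 4 per list) are named; other genes, called or not, were added after their values were seen. The members and lists were chosen with earlier results of these data known. A called gene of the TGF-β target list is not reported here.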

Additional observations from a re-analysis of the deposited data

How the results depend on the processing

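Of 135 values of the tested members under 15 alternatives, 125 kept their direction and side of the threshold, and TGFB1 changed sign without vehicle replicate 2 (its log2 fold change ran from -0.15 to 0.02 over the leave-one-out fits). No member was called higher under any alternative. The members called lower numbered 2 without a low-count filter, 2 with DESeq2, 0 with thinned counts, and 0 to 2 over the leave-one-out fits. Called TGF-β target genes, counted under these alternatives after the data were seen, were 9 to 10 higher throughout. Those lower were 2 without the filter, 2 with DESeq2, 2 with limma-voom, 0 with the replicate block, 0 with thinned counts, and 0 to 1 with a library left out. Over all tested genes, leaving out a library gave 587 to 926 higher and 655 to 1010 lower. It gave 6 to 12 pathway genes lower. Leave-one-out fits have fewer samples. RPKM kept the order of the members given by TPM. The cause of the other differences was not tested. Scaling moved the median of all genes by less than 0.1.

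Same-numbered libraries deviated from their group means with correlations of -0.058, -0.027 and -0.003, so the numbers were not taken as pairs. No library correlated best with its own number. Correlations were highest for vehicle replicate 2 with glycine replicate 1 (0.214), vehicle 1 with glycine 3 (0.214) and vehicle 3 with glycine 2 (0.18). The study defines biological replicates by experimental day, but the labels do not say which libraries shared a day. A pairing under other numbers was not fitted or tested. With the replicate block, 0 members were higher and 1 lower (BAMBI, edgeR adjusted p = 0.0438), and 866 and 918 of all genes.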
